A study of Mus musculus with 9 samples.

Results

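The genes described here are 10 regulators and targets of the PPAR, LXR and RXR nuclear receptors in mouse bone marrow (BM)-derived Mϕs. They were chosen by symbol as known members of this lipid pathway, with earlier results of these data known. Counts of calls among them are therefore descriptions beside the shares of all tested genes, not tests. All 10 were found among the 53379 genes of the deposited table. The receptors are Pparg, Ppard, Rxra and Nr1h3, the coactivator is Ppargc1b, and the targets are Abca1, Abcg1, Apoe, Fabp4 and Plin2. All 10 were among the 12824 genes with a mean of at least 0.5 FPKM (fragments per kilobase of exon and per 1000000 fragments), over which every test was run.

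PPARs and LXRs are transcription factors that sense lipids: PPARs bind fatty acids and their oxidised products, and LXRs bind oxysterols made from cholesterol. Each acts as a heterodimer with an RXR on paired AGGTCA-like half-sites, classically 1 base apart (DR1) for PPARs and 4 bases apart (DR4) for LXRs. In Mϕs, PPARγ is known for fatty acid uptake and storage and for its part in the alternative, IL-4-driven state, and LXRs are known for the export of cholesterol through ABCA1, ABCG1 and APOE.

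BM cells of wild-type C57BL/6 mice were grown for 3 days with 10 ng/ml M-CSF (CSF-1), which drives their differentiation to Mϕs. All 3 groups then kept 10 ng/ml M-CSF for 4 more days, alone in controls, with 10 ng/ml IL-4 or with 100 ng/ml IL-6. These doses and times are those of the labels, while the study's methods give a higher dose of IL-4 and its legends give other cytokine doses and a shorter treatment. Each group holds 3 libraries, numbered #1 to #3, and the design names 3 mice, whose age and sex the labels do not give. The labels do not say that a number marks the same mouse in each group.

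The libraries held 29988160 to 39909571 fragments, and between 58 and 710042 fragments stood behind a value of the 8 member genes for which they could be recovered. Arg1, an IL-4 target of mouse Mϕs, was at 730.3 to 1227 FPKM with IL-4 and at most 5.33 FPKM elsewhere. Socs3, which IL-6 induces through STAT3, was at 74.7 to 85.5 FPKM with IL-6 and at most 3.23 FPKM elsewhere. The 10 Mϕ markers were detected in every group and summed to 16833 to 19141 FPKM in controls, 6242 to 7268 FPKM with IL-4 and 20605 to 21667 FPKM with IL-6. Of these 10 markers, 5 were lower with IL-4 than in controls and 1 higher with IL-6 by the limma test (adjusted p under 0.05 and at least a 2-fold difference). Of all tested genes, 8.89% were lower with IL-4 and 3.49% higher with IL-6 by this rule.

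The libraries also differed in other ways beside the treatment. Transcripts of 15 intestinal secretory genes, which BM Mϕs should lack, summed to 29.9 to 45.4 FPKM in Control #1 to #3 and IL-4 #1 (set A), and to at most 0.17 FPKM in IL-4 #2, IL-4 #3 and IL-6 #1 to #3 (set B). Some skeletal muscle transcripts split the other way. Myl1 was at 0 in set A and 0.675 to 1.27 FPKM in set B, and Mb at 0 and at 0.229 to 0.807 FPKM. Not all of the 15 muscle markers did so, and Tnni2 was highest in controls (4.34 to 6.97 FPKM). Myl1, Mb and Tnni2 were named after their values were seen, and the part of these transcripts was not tested. All controls are in set A and all IL-6 libraries in set B, so in IL-6 against control the set and the treatment cannot be told apart. Within a set, only IL-4 #1 can be set beside the controls, and IL-6 beside IL-4 #2 and #3. Where a fit below holds a term for the set, that term is estimated only from IL-4 #1 against IL-4 #2 and #3. Genes with at least 8000 exon bases, 1864 in number, had a median deviation of −1.08 on the log2 scale in IL-4 #3, against −0.24 to 0.38 in the other libraries. These genes were highest in IL-6 #1 (0.38) and Control #1 (0.34).

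RefSeq promoter windows (GRCm38.p6) were matched for 7 of the 10 genes, 13 windows in all, and none for Abcg1, Fabp4 and Ppargc1b. The 250 bases before the start were searched on both strands for DR1 (AGGTCANAGGTCA) and DR4 (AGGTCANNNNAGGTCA) with up to 3 mismatches to their letters, for the STAT6 motif TTCNNNNGAA, the STAT3 motif TTCNNNGAA and the E-box CACGTG. The windows of Abca1, Apoe and Plin2 are shown because these targets differ in response and each window holds such a match, with DR1 or DR4 matches in capitals.
Abca1, chr4:53159896-53160145, minus strand: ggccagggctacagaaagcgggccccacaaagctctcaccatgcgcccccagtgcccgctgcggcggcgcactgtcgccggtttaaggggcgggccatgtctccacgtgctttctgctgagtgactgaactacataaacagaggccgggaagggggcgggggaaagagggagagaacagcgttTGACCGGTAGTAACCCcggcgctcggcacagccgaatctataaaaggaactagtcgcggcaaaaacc
Apoe, chr7:19699189-19699438, minus strand: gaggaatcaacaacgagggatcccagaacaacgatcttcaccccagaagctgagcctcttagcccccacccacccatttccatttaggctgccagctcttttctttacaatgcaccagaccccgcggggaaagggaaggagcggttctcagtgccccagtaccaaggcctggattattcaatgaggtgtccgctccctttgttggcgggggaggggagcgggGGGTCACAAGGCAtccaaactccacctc
Plin2, chr4:86670060-86670309, minus strand: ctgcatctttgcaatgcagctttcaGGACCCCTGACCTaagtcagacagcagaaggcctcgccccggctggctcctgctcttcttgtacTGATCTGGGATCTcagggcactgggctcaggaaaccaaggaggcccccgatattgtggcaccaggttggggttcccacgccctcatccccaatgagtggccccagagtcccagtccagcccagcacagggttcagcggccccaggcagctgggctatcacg

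The Abca1 window holds a DR4-like match with 3 mismatches 67 to 52 bases before the start, and an E-box 147 to 142 bases before it. The Plin2 window holds 2 DR1-like matches, 1 with 2 mismatches at 225 to 213 bases and 1 with 3 mismatches at 161 to 149 bases before the start. The Apoe window has a DR1-like match with 3 mismatches 28 to 16 bases before the start. A DR1 match with up to 3 mismatches occurs in 21.3% of all 32851 promoter windows and a DR4 match in 18.5%, and with up to 2 mismatches in 3.24% and 2.57%. Another window, of Rxra, chr2:27709042-27709291 on the plus strand, holds both a DR1-like match with 2 mismatches and a DR4-like match with 3 mismatches. None of the 13 windows holds the STAT6 or the STAT3 motif, which occur in 5.9% and 7.0% of all windows, and the E-box occurs in 6.0%. These matches are descriptions of letters and say nothing of binding.

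**Figure D1:**
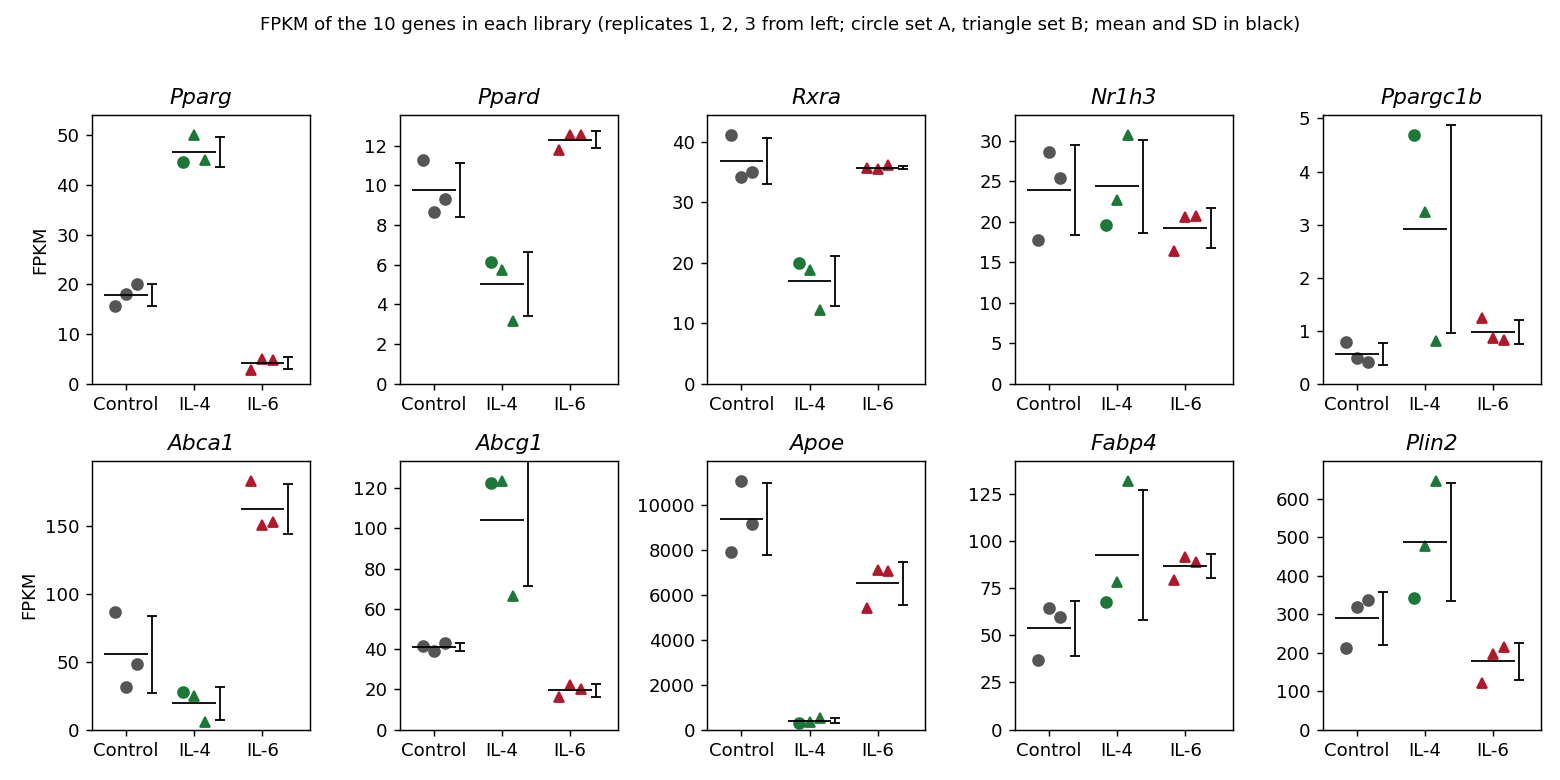
FPKM of the 10 genes (vertical axes from 0, 1 panel a gene) in each library of the control, IL-4 and IL-6 groups, with the mean as a line and the SD as a bar (n = 3), circles for set A and triangles for set B. Pparg and Abcg1 are highest with IL-4 and lowest with IL-6, Abca1 is highest with IL-6, and Apoe is at 307.5 to 525.9 FPKM with IL-4 against 5410 FPKM or more in every other library.

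Against control, IL-4 raised Pparg, Abcg1 and Ppargc1b and lowered Apoe and Rxra. A gene was called when its limma adjusted p was under 0.05 and its log2 fold change, on log2(FPKM + 0.1), was 1 or more in size. By this rule 3 of the 10 genes were higher and 2 lower, where 5.02% of all tested genes were higher and 8.89% lower. The median log2 fold change of the 10 genes was 0.38, against −0.20 over all tested genes. Rescaling each library by its median ratio moved that median of all genes from −0.20 to −0.01 and the calls from 644 higher and 1140 lower to 834 and 874. Quantile normalization gave 824 and 849, and removal of length and GC trends 840 and 918.

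IL-6 lowered Pparg and Abcg1 against control. By the same limma rule 2 of the 10 genes were lower and 0 higher, where 1.89% of all tested genes were lower and 3.49% higher. At an unadjusted p under 0.05, 2 of the 10 were higher and 3 lower. On recovered fragments, which do not cover Abcg1, limma voom called 0 of 8 higher and 1 lower. The shares of all tested genes by an unadjusted p or by voom are not given here, so these counts are descriptions alone. The median log2 fold change was −0.17 for the 10 genes and −0.00 over all tested genes. When the fit held a term for the set of libraries, neither call against control remained.

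IL-6 directly against IL-4 gave the most calls, with Apoe, Abca1, Ppard and Rxra higher and Pparg, Abcg1 and Plin2 lower. These are 4 of 10 higher and 3 of 10 lower, where 13.6% and 6.82% of all tested genes were called. The median log2 fold change was −0.18 for the 10 genes and 0.22 over all tested genes. Median-ratio rescaling moved the calls over all genes from 1738 higher and 875 lower to 1398 and 1165, quantile normalization to 1305 and 1260, and removal of length and GC trends to 1336 and 1233. The comparisons share libraries and are not independent of each other.

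**Figure D2:**
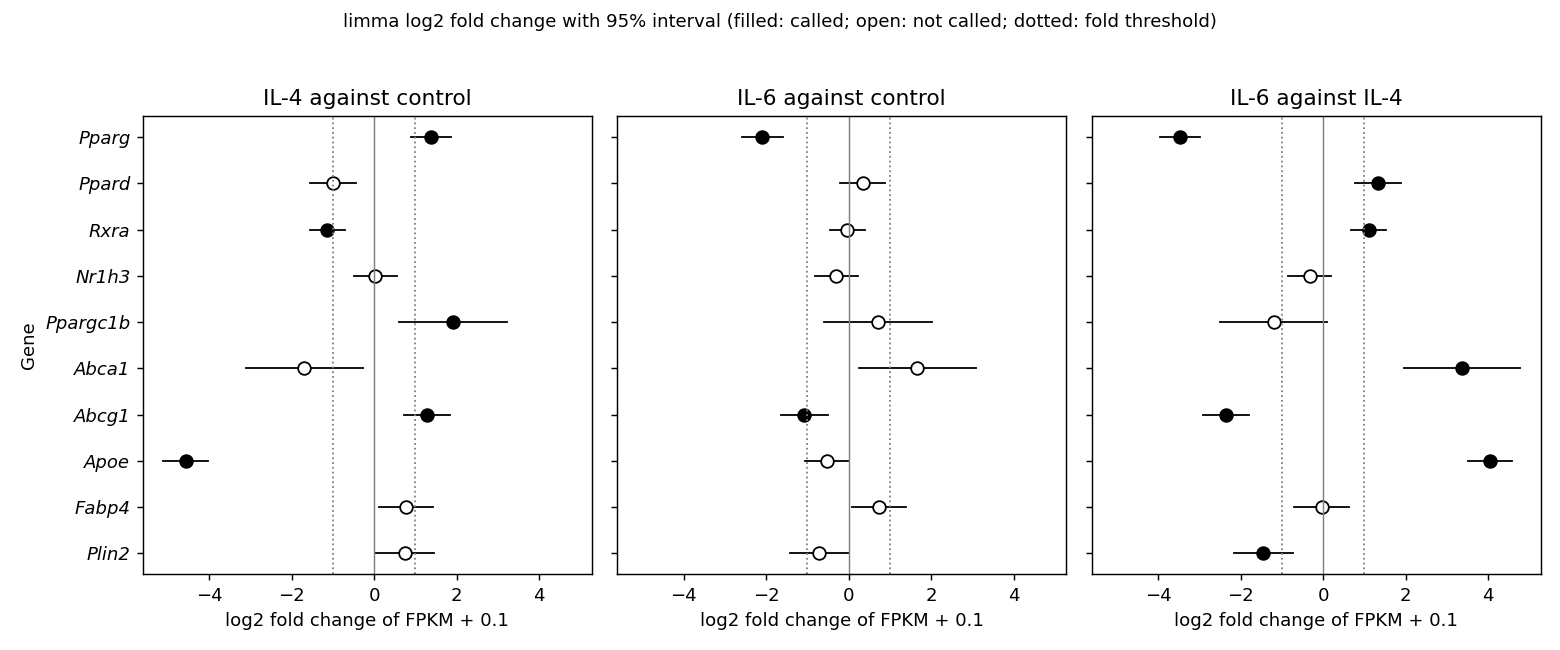
limma log2 fold changes of FPKM + 0.1 (horizontal axes) of the 10 genes in the 3 comparisons, with 95% intervals as lines, filled points for called genes, open points for the rest and dotted lines at the fold threshold. Pparg and Abcg1 are called in all 3 comparisons, and Apoe lies at −4.58 in the first panel and at 4.06 in the last.

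Of the receptors, Pparg (chr6:115360951-115490399, plus strand, GRCm38) encodes PPARγ, the fatty acid sensor that drives lipid uptake and storage genes. Its level was 15.6, 18.2 and 20.0 FPKM in Control #1 to #3, 44.5, 50.1 and 45.1 FPKM in IL-4 #1 to #3, and 2.85, 5.08 and 4.73 FPKM in IL-6 #1 to #3. The 3 groups did not overlap, with IL-4 highest and IL-6 lowest. The IL-4 mean of 46.6 ± 3.05 FPKM (SD, n = 3) was 2.60 times the control mean of 17.9 ± 2.23 FPKM (log2 fold change 1.38, standard error 0.215, limma adjusted p = 0.00254). The IL-6 mean of 4.22 ± 1.20 FPKM was 4.24-fold lower than control (log2 −2.09, adjusted p = 0.000944) and 11.0-fold lower than IL-4 (log2 −3.47, adjusted p = 1.43e-05). Within set A, IL-4 #1 stood at 2.49 times the control mean, and within set B the mean of IL-4 #2 and #3 was 11.3 times that of IL-6. When the set was a term of the fit, the call against control was lost for IL-6 (log2 −2.19, adjusted p = 0.0567) and kept for IL-4 (log2 1.32, adjusted p = 0.042). As in any bulk sample, less RNA per cell and fewer cells that express a gene cannot be told apart.

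Ppard (chr17:28232700-28301474, plus strand) encodes PPARδ, the more broadly expressed PPAR linked to fatty acid oxidation. It was at 11.3, 8.68 and 9.32 FPKM in controls, 6.14, 5.73 and 3.18 FPKM with IL-4, and 11.8, 12.5 and 12.5 FPKM with IL-6. Every IL-4 library was below every control library, and every IL-6 library was above all others. Against control, the IL-4 mean was 1.95-fold lower (log2 −0.99, 95% interval −1.55 to −0.44, limma adjusted p = 0.0185), which is short of the fold threshold. Leaving out Control #2, IL-4 #1 or IL-4 #2 moved this value past the threshold (log2 −1.07, −1.17 and −1.12). In contrast, its adjusted p rose to 0.072 without Control #1 and to 0.0557 without Control #3, and its log2 fold change shrank to −0.70 without IL-4 #3. A term for the set gave −0.65 (adjusted p = 0.262), and a fit of only the groups compared gave an adjusted p of 0.0719. For IL-6 against control the log2 fold change was 0.34 (95% interval −0.22 to 0.89, adjusted p = 0.501). Ppard was 2.45 times higher with IL-6 than with IL-4 (log2 1.33, adjusted p = 0.00392), and 2.76 times higher within set B. With length and GC trends removed, that log2 fold change was 0.96, under the fold threshold (adjusted p = 6.28e-05).

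The level of Pparg over that of Ppard, both per length, was 1.38 to 2.15 in controls, 7.25 to 14.2 with IL-4 and 0.242 to 0.406 with IL-6. Pparg thus exceeded Ppard in all control and IL-4 libraries and lay below it in all IL-6 libraries. An exact permutation test, two-sided, gave p = 0.1 for each pair of groups, the smallest that 3 libraries against 3 allow. This ratio was chosen after the values of both genes had been seen.

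Rxra (chr2:27676440-27762957, plus strand) encodes RXRα, the shared partner of PPARs and LXRs. It was at 41.1, 34.1 and 35.0 FPKM in controls, 19.9, 18.8 and 12.2 FPKM with IL-4, and 35.6, 35.5 and 36.1 FPKM with IL-6. IL-4 libraries lay below all others, while the control and IL-6 libraries overlapped. The mean with IL-4, 17.0 ± 4.17 FPKM, was 2.17-fold lower than the control mean of 36.7 ± 3.81 FPKM (log2 −1.14, standard error 0.186, limma adjusted p = 0.00323). It was 2.10 times higher with IL-6 than with IL-4 (log2 1.10, adjusted p = 0.00274), and the log2 fold change of IL-6 against control was −0.04 (95% interval −0.46 to 0.39). Within set A, the controls stood at 1.85 times IL-4 #1, and the call for IL-4 against control was lost when the set was a term of the fit (log2 −0.88, adjusted p = 0.0635). Both calls are close to the fold threshold: without IL-4 #3, in which long genes are low, the values were −0.92 and 0.88, with length and GC trends removed −0.81 and 0.81, and with median-ratio rescaling −0.94 and 0.90.

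Nr1h3 (chr2:91184061-91202834, minus strand) encodes LXRα, the oxysterol sensor that is enriched in Mϕs and liver. Its level was 17.8, 28.6 and 25.5 FPKM in controls, 19.6, 22.8 and 30.8 FPKM with IL-4, and 16.4, 20.6 and 20.7 FPKM with IL-6. All 3 groups overlapped. The log2 fold change was 0.03 for IL-4 against control (95% interval −0.50 to 0.55, limma adjusted p = 0.94), −0.30 for IL-6 against control (−0.82 to 0.23, adjusted p = 0.532) and −0.33 for IL-6 against IL-4 (−0.85 to 0.20, adjusted p = 0.279). Changes within these intervals were not detectable. Its exons share 34 bases with those of Gm13783 on the same strand.

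Among the other receptors, Ppara, the PPAR of liver and heart, was at most 0.00869 FPKM, and at 0 in all IL-4 and IL-6 libraries. Rxrb, another RXR gene, averaged 17.9 FPKM in controls, 12.5 FPKM with IL-4 and 16.1 FPKM with IL-6. Against control its log2 fold change with IL-4 was −0.52 (limma adjusted p = 0.0114), and IL-6 exceeded IL-4 by 0.37 (adjusted p = 0.0357), both short of the fold threshold. Nr1h2, which encodes the ubiquitous LXRβ, averaged 31.5, 25.9 and 27.9 FPKM, with log2 fold changes of −0.28 (adjusted p = 0.0801) for IL-4 and −0.17 (adjusted p = 0.393) for IL-6 against control. In controls the order of mean levels was Rxra, Nr1h2, Nr1h3, Pparg, Rxrb and Ppard, and of these neighbours Rxra and Nr1h2, Nr1h3 and Pparg, and Pparg and Rxrb overlapped over the 3 libraries.

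The coactivator gene Ppargc1b encodes PGC-1β, which binds PPARs and other nuclear receptors and raises mitochondrial and lipid genes. It was the lowest of the 10 genes, at 0.797, 0.485 and 0.414 FPKM in controls, 4.69, 3.23 and 0.81 FPKM with IL-4, and 1.24, 0.86 and 0.824 FPKM with IL-6, with 58 to 640 fragments a library. IL-4 #1 and #2 were well above the rest, whereas IL-4 #3 was just above the highest control and below all IL-6 libraries. IL-4 exceeded control by 1.92 on the log2 scale (standard error 0.569, limma adjusted p = 0.0411). Without IL-4 #3 it was 2.63 (adjusted p = 0.000418), and leaving out any other library lost the call (adjusted p of 0.0625 to 0.128). A term for the set gave 2.89 (adjusted p = 0.0384), and within set A IL-4 #1 stood at 8.30 times the control mean. For IL-6 against control the log2 fold change was 0.71 (95% interval −0.59 to 2.02, adjusted p = 0.55), and a term for the set moved it to 2.17 (adjusted p = 0.252). For IL-6 against IL-4 it was −1.20 (adjusted p = 0.131), and −1.91 without IL-4 #3 (adjusted p = 0.00163).

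The cholesterol exporters Abca1 and Abcg1 moved in opposite directions between IL-4 and IL-6. Abca1 (chr4:53030787-53159895, minus strand) encodes the transporter that loads cholesterol onto lipid-poor apolipoproteins, and its promoter window is shown above with a DR4-like match. It was at 86.3, 31.5 and 48.1 FPKM in controls, 27.9, 25.0 and 5.40 FPKM with IL-4, and 183.2, 150.4 and 153.0 FPKM with IL-6. IL-6 libraries were above and IL-4 libraries below all controls, and the controls had the widest spread, relative to their mean, of the 10 genes. IL-6 was 8.35 times higher than IL-4 (log2 3.37, standard error 0.615, limma adjusted p = 0.0041), and 10.7 times higher within set B. Against control, neither difference passed the test: log2 −1.70 for IL-4 (95% interval −3.11 to −0.28, adjusted p = 0.0802) and 1.67 for IL-6 (0.25 to 3.08, adjusted p = 0.161).

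Abca1 has 10363 exon bases, and its highest control and lowest IL-4 library, Control #1 and IL-4 #3, are also the highest control and the lowest IL-4 library for long genes. With length and GC trends removed from each library, an alternative chosen after the data were seen, both differences from control passed: log2 −1.43 for IL-4 (limma adjusted p = 0.0169) and 1.46 for IL-6 (adjusted p = 0.0302), and IL-6 against IL-4 was 2.90 (adjusted p = 0.000386). Without IL-4 #3, IL-6 against control passed (log2 1.67, adjusted p = 0.00803), while IL-4 against control was −0.94 (adjusted p = 0.0721). Without IL-4 #1, IL-4 against control was −2.11 (adjusted p = 0.0479). A term for the set gave −0.86 for it (adjusted p = 0.633), and 2.92 for IL-6 against control (adjusted p = 0.221). Within set A, the control mean was 1.98 times IL-4 #1.

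Abcg1 (chr17:31057675-31117988, plus strand) encodes the half-transporter that passes cholesterol to mature high-density lipoprotein. Its level was 41.6, 39.1 and 43.1 FPKM in controls, 122.7, 123.7 and 66.5 FPKM with IL-4, and 16.1, 22.4 and 20.4 FPKM with IL-6. The groups did not overlap, and IL-4 #3 was the lowest of its group. The mean with IL-4, 104.3 ± 32.8 FPKM, was 2.53 times the control mean of 41.2 ± 2.03 FPKM (log2 1.28, standard error 0.246, limma adjusted p = 0.00674). This call held beside a term for the set (log2 1.57, adjusted p = 0.026), and IL-4 #1 stood at 2.98 times the control mean within set A. IL-6 was 2.10-fold lower than control (log2 −1.08, adjusted p = 0.0336) and 5.31-fold lower than IL-4 (log2 −2.36, adjusted p = 0.000224), and 4.84-fold lower within set B. The call against control was lost with the replicate number as a block (adjusted p = 0.0594), beside a term for the set (log2 −0.64, adjusted p = 0.344), and when any 1 control or IL-6 library was left out (adjusted p of 0.0786 to 0.13).

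Abca1 over Abcg1, both per length, was 0.807 to 2.08 in controls, 0.0813 to 0.227 with IL-4 and 6.72 to 11.3 with IL-6. The groups did not overlap, and the exact permutation test gave p = 0.1, its smallest value, for each pair. This ratio too was chosen after the values had been seen. Abcg1 has 7298 exon bases, fewer than Abca1, and the part of length in the ratio was not tested.

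**Figure D3:**
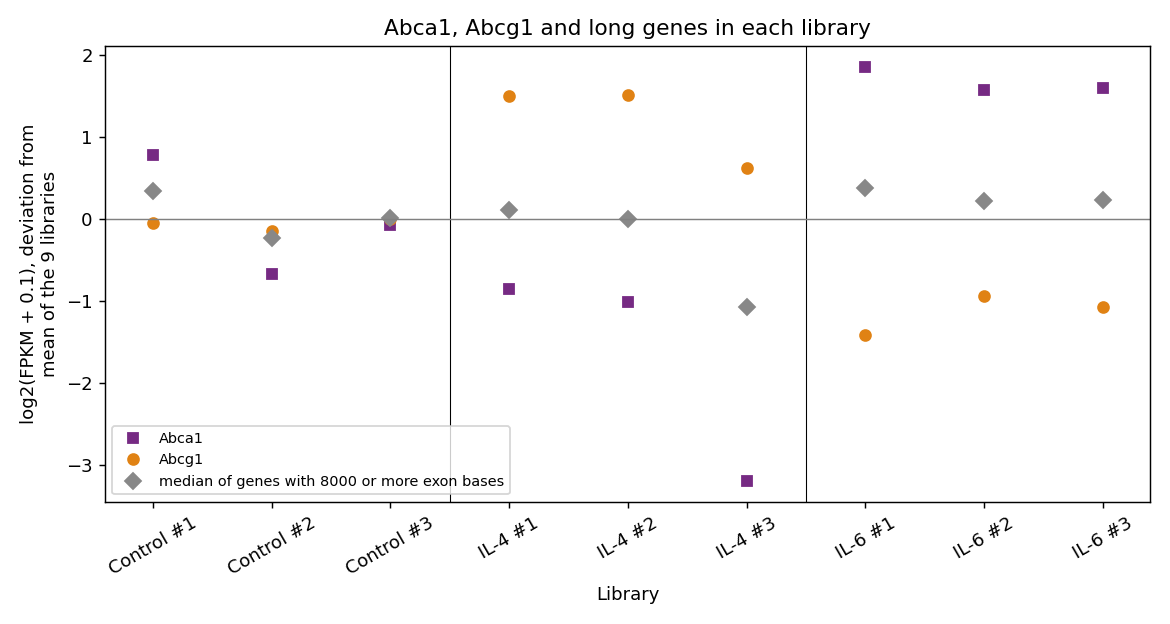
Deviation of Abca1 (squares) and Abcg1 (circles) from their mean over the 9 libraries, on log2(FPKM + 0.1), beside the median deviation of the 1864 genes with at least 8000 exon bases (diamonds), by library. Abca1 and Abcg1 lie on opposite sides of 0 in every IL-4 and IL-6 library, and IL-4 #3 is the lowest library for Abca1 and for long genes (−1.08).

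Apoe (chr7:19696109-19699188, minus strand) encodes apolipoprotein E, the acceptor and carrier of cholesterol that Mϕs secrete. It had the largest change of the 10 genes, at 7918, 11075 and 9140.1 FPKM in controls, 307.5, 362.6 and 525.9 FPKM with IL-4, and 5409.9, 7102 and 7033 FPKM with IL-6. All IL-4 libraries were far below the others, and the IL-6 libraries were below the controls. The mean with IL-4, 398.7 ± 113.6 FPKM, was 23.5-fold lower than the control mean of 9377.5 ± 1592 FPKM (log2 −4.58, standard error 0.233, limma adjusted p = 8.77e-06). The mean with IL-6, 6515 ± 957.6 FPKM, was 16.3 times that with IL-4 (log2 4.06, adjusted p = 9.36e-06) and 1.44-fold lower than control (log2 −0.52, 95% interval −1.06 to 0.01, adjusted p = 0.249). Within sets, the control mean was 30.5 times IL-4 #1, and IL-6 was 14.7 times IL-4 #2 and #3. Apoe alone made up 2.45 to 2.98% of the summed FPKM in controls, 1.64 to 2.06% with IL-6 and 0.0903 to 0.119% with IL-4. Both calls held under each of the 20 alternatives, whereas IL-6 against control was 0.06 with quantile normalization (adjusted p = 0.775).

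Fabp4 (chr3:10204088-10208576, minus strand) encodes the fatty acid chaperone of adipocytes and Mϕs, a PPARγ target. It was at 36.7, 64.2 and 59.8 FPKM in controls, 67.6, 78.0 and 132.0 FPKM with IL-4, and 79.4, 91.4 and 88.8 FPKM with IL-6. All treated libraries were above all controls, and IL-4 and IL-6 libraries overlapped. The log2 fold change was 0.77 for IL-4 (95% interval 0.11 to 1.43, limma adjusted p = 0.0885) and 0.73 for IL-6 (0.07 to 1.39, adjusted p = 0.191), and neither passed. IL-6 against IL-4 was −0.04 (−0.70 to 0.62, adjusted p = 0.925). Pparg RNA differed 11.0-fold between these groups, and a link between the levels of these genes was not tested. The 4489 exon bases of Fabp4 include retained introns, so its level per length is understated.

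Plin2 (chr4:86648386-86670060, minus strand) encodes the perilipin that coats lipid droplets in Mϕs, and its promoter window holds the DR1-like matches shown above. It was at 211.1, 319.5 and 336.7 FPKM in controls, 341.1, 476.8 and 647.3 FPKM with IL-4, and 121.6, 196.9 and 213.7 FPKM with IL-6. IL-4 libraries were above all controls, 1 of them by little, and the highest IL-6 library was just above the lowest control. IL-6 was 2.75-fold lower than IL-4 (log2 −1.45, standard error 0.312, limma adjusted p = 0.00854) and 3.17-fold lower within set B. Against control, the log2 fold change was 0.74 for IL-4 (adjusted p = 0.124) and −0.72 for IL-6 (adjusted p = 0.234). Of its 50-base words, 2.57% also occur in Gm12551, a near copy.

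By mean level, Pparg, Abcg1 and Plin2 were in the order IL-4, control, IL-6, with control not apart from either treatment beyond the test for Plin2. Abca1 and Ppard were in the order IL-6, control, IL-4, with only the outer pair called for both. For Ppard, IL-4 against control missed the fold threshold alone (log2 −0.99, limma adjusted p = 0.0185). Apoe was in the order control, IL-6, IL-4, with control and IL-6 not apart. Rxra was lowest with IL-4, and control and IL-6 were given no order. Ppargc1b was higher with IL-4 than in controls, and no difference of Fabp4 or Nr1h3 passed the test.

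Of 97 other genes of the PPAR, LXR and RXR pathway, 71 passed the filter on low values and 26 did not. Against control, IL-4 raised 8 and lowered 6 of the 71, where 5.02% of all tested genes were higher and 8.89% lower. IL-6 raised 2 and lowered 3 against control (3.49% and 1.89% of all tested genes), and raised 9 and lowered 7 against IL-4 (13.6% and 6.82%). Vdr and Rbp4, which passed the filter only through their IL-4 libraries, are among the 8 raised with IL-4 and among these 7. The median log2 fold changes of the 71 were −0.22, 0.00 and 0.10. The medians over all tested genes were −0.20, −0.00 and 0.22. The count for IL-6 against control was 2 beside a term for the set, 14 without IL-4 #3, 3 without Control #1 or IL-6 #3, 13 with only the groups compared, 11 with length and GC trends removed and 9 with quantile normalization.

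Of the 25 tested PPAR targets, limma called 3 higher and 3 lower with IL-4, 0 higher and 3 lower with IL-6, and 3 higher and 3 lower in IL-6 against IL-4. The shares of all tested genes, higher and lower, were 5.02% and 8.89%, 3.49% and 1.89%, and 13.6% and 6.82%. For IL-6 against control, 6 were higher and 12 lower at an unadjusted p under 0.05, and voom called 0 of 21 higher and 3 lower. The shares of all tested genes by either of these rules are not given here, so these counts are no result about PPAR targets. Cd36, the fatty acid and oxidised lipoprotein receptor, was at 266.5, 277.5 and 389.1 FPKM in controls, 1027, 1107 and 628.3 FPKM with IL-4, and 24.2, 28.0 and 29.3 FPKM with IL-6. It rose with IL-4 (log2 1.54, limma adjusted p = 0.00256) and fell with IL-6 (log2 −3.50, adjusted p = 0.000171), and was 33.9-fold lower with IL-6 than with IL-4 (log2 −5.04, adjusted p = 3.72e-06). Lpl, the lipase that frees fatty acids from lipoproteins, averaged 187.9 FPKM in controls, 514.6 FPKM with IL-4 and 64.4 FPKM with IL-6. It also rose with IL-4 (log2 1.47, adjusted p = 0.000822) and fell with IL-6 (log2 −1.52, adjusted p = 0.00222), although the fall was not called beside a term for the set (adjusted p = 0.0591). Cd36 and Lpl thus had the order of Pparg, Abcg1 and Plin2.

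By mean level, 7 of the 25 tested PPAR targets had this order, the others being Acadl, Acadm, Hadha, Pltp and Cpt2, which were called in no comparison and were named after their values were seen. How many of all tested genes had this order was not counted, so the 7 are no result about PPAR targets. Every other called PPAR target, namely Cyp27a1, Fabp3, Fabp5, Tgm2 and Acsl1, had another order. Fabp5, Tgm2 and Acsl1 fall outside the rule for named genes and were named after their values were seen. Fabp5 averaged 734.7 FPKM in controls, 357.3 FPKM with IL-4 and 1080 FPKM with IL-6. For Tgm2 the means were 73.4, 280.5 and 100.2 FPKM, and for Acsl1 4.40, 3.23 and 9.42 FPKM. Cyp27a1, the sterol 27-hydroxylase that makes an LXR ligand, averaged 52.7 FPKM in controls, 15.9 FPKM with IL-4 and 20.3 FPKM with IL-6, and was called lower with both (log2 −1.73 and −1.37). Fabp3, a fatty acid binding protein of muscle, averaged 7.16, 2.03 and 9.34 FPKM and was called lower with IL-4 than in controls (log2 −1.84, limma adjusted p = 0.00348) and than with IL-6.

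Of the 18 tested LXR targets, limma called 2 higher and 3 lower with IL-4, 1 higher and 0 lower with IL-6, and 4 higher and 1 lower in IL-6 against IL-4, beside the same shares of all tested genes (5.02% and 8.89%, 3.49% and 1.89%, 13.6% and 6.82%). For IL-6 against control, 4 were higher and 2 lower at an unadjusted p under 0.05, and voom called 0 of 15 in either direction. With IL-4, voom called 0 of 15 higher and 3 lower, without Scd1 and Scd2, for which no fragments were recovered. Shares of all tested genes by voom or an unadjusted p are not given here, so the counts by them are no result about LXR targets. The risers with IL-4 were the stearoyl-CoA desaturases Scd1 and Scd2. Scd1 was at 0.847 to 1.23 FPKM in controls, at 20.3, 16.2 and 4.24 FPKM with IL-4 and at 1.42 to 1.67 FPKM with IL-6. Scd2 averaged 9.48 FPKM in controls, 101.0 FPKM with IL-4 and 45.3 FPKM with IL-6, and rose with both (log2 3.19, limma adjusted p = 0.00124, and 2.23, adjusted p = 0.0179). The rise with IL-6 was kept under 12 of 19 alternatives. It was lost when any 1 control or IL-6 library was left out (adjusted p of 0.0535 to 0.0772) and beside a term for the set (log2 3.40, adjusted p = 0.0597).

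Those that fell with IL-4 were Cd5l, which encodes a secreted Mϕ protein, Apoc1, an apolipoprotein gene neighbouring Apoe, and Mylip, the ligase that degrades the LDL receptor. Cd5l was at 138.7, 268.7 and 245.7 FPKM in controls, 15.4, 24.4 and 37.3 FPKM with IL-4 and 502.6, 539.5 and 441.0 FPKM with IL-6. It fell to a log2 fold change of −3.11 for IL-4 against control (limma adjusted p = 0.000451), and IL-6 exceeded IL-4 by 4.35 (adjusted p = 5.17e-05). For IL-6 against control Cd5l was not called (log2 1.235, adjusted p = 0.0719). That value was 0.267 beside a term for the set (adjusted p = 0.721). Some alternatives called it, such as removal of length and GC trends (log2 1.291, adjusted p = 0.0253). Apoc1 was low, with means of 1.83, 0.206 and 1.80 FPKM (log2 −2.80 for IL-4, adjusted p = 0.00134, and 2.76 for IL-6 against IL-4, adjusted p = 0.00107). Cd5l and Apoc1, like Apoe, were thus lowest with IL-4 in every library. Mylip averaged 31.3, 6.31 and 17.6 FPKM (log2 −2.42 for IL-4, adjusted p = 0.00176). Srebf1, the LXR-driven regulator of fatty acid synthesis, averaged 10.3, 14.9 and 13.4 FPKM and was not called, with log2 0.50 for IL-4 (adjusted p = 0.0777) and 0.38 for IL-6 (adjusted p = 0.281).

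Among the remaining roles, of 5 receptors, 1 rose with IL-4, the vitamin D receptor Vdr, from a mean of 0.272 to 2.63 FPKM (log2 2.79, limma adjusted p = 0.000889), and it was at 0.244 FPKM with IL-6. Vdr passed the filter only through its IL-4 libraries, so the direction of this call was set by the filter. Of 15 coregulators, limma called 0 against control with either cytokine, and 1, the corepressor gene Nrip1, higher in IL-6 than in IL-4. All tested genes had shares, higher and lower, of 5.02% and 8.89% for IL-4 against control and 3.49% and 1.89% for IL-6 against control. For IL-6 against IL-4 they were 13.6% and 6.82%. At these shares few calls fall among any 15 genes, so the counts are no result about coregulators. The same shares stand beside the other roles given here. At an unadjusted p under 0.05, 2 coregulators were lower with IL-4 and 1 with IL-6, and voom called 0 of 12, again without the shares of all tested genes by these rules. Nrip1 falls outside the rule for named genes and was named after its values were seen. Of 8 fatty acid and retinoid binding protein genes only Fabp7 and Rbp4 passed the filter. Both were called higher with IL-4 than in controls and lower with IL-6 than with IL-4. Rbp4 passed the filter only through its IL-4 libraries, so the direction of its calls was set by the filter. Fabp7, a brain-type fatty acid binding protein, averaged 1.85, 6.43 and 0.566 FPKM (log2 1.70 for IL-4 against control, adjusted p = 0.0284, and −3.26 for IL-6 against IL-4, adjusted p = 0.00108). Its rise with IL-4 was kept under 13 of 19 alternatives, and was lost without Control #1, Control #2 or IL-4 #2, with no filter on low values, in a fit of only the groups compared and beside a term for the set (log2 1.10, adjusted p = 0.342). Rbp4, the retinol carrier, was at 0.947, 2.09 and 3.17 FPKM with IL-4 and at most 0.0221 FPKM in the other libraries, so near 0 that no fold is given. Of 6 genes of lipid droplets and neutral lipid metabolism, Dgat2, which makes triglyceride, rose with IL-6 against control (means 3.80 and 7.72 FPKM, log2 1.00, adjusted p = 0.00863) and against IL-4 (log2 1.99, adjusted p = 5.81e-05). Its rise against control lay on the fold threshold and was kept under 13 of 19 alternatives. The call was lost without Control #1 (log2 0.90), without IL-6 #3 (log2 0.90) and beside a term for the set (log2 0.84, adjusted p = 0.23), and also with a pseudocount of 1 and with either rescaling of the libraries. No gene of the 71 was called higher with IL-6 than in controls without Control #1, without IL-6 #3 or beside a term for the set.

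**Figure D4:**
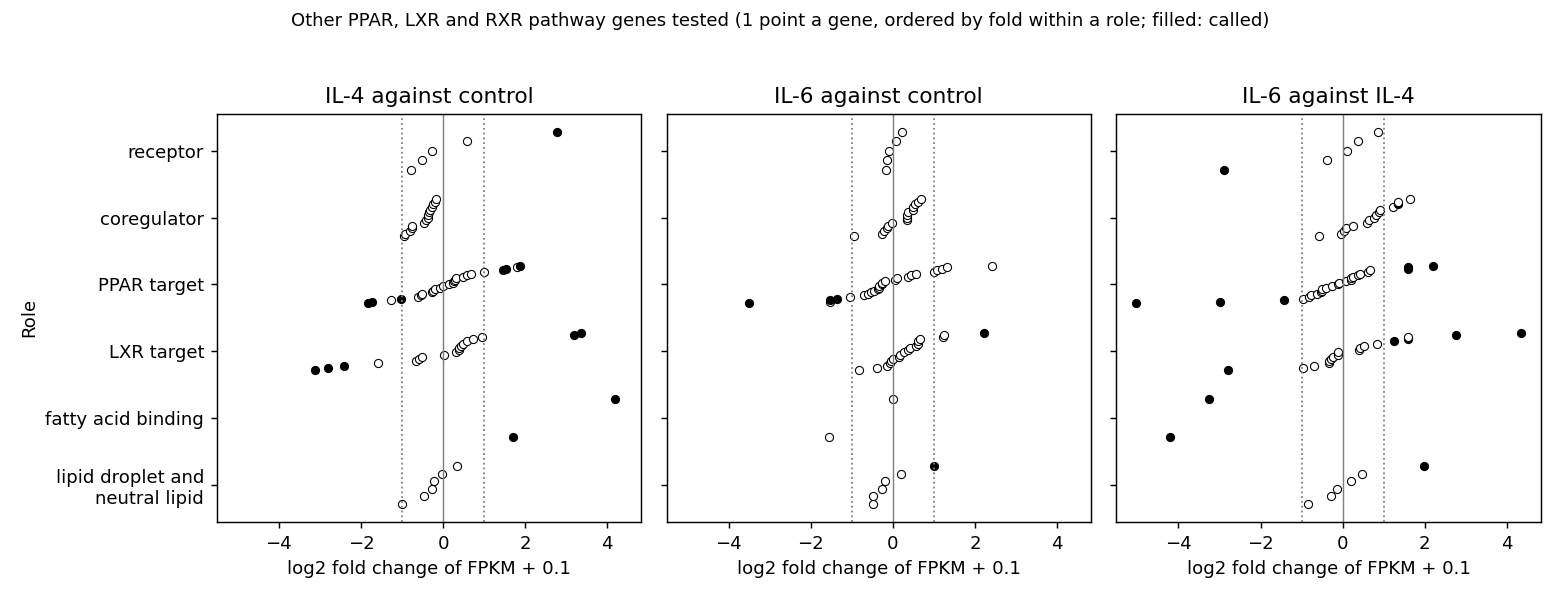
limma log2 fold changes of FPKM + 0.1 (horizontal axes) of the 71 tested pathway genes other than the 10 above, by role (vertical axis) in the 3 comparisons, with 1 point a gene, filled where called. Calls stand on both sides of 0 among PPAR and LXR targets. The 15 coregulators have no call against control, which is no result about them, as few calls fall among any 15 tested genes.

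Markers of other cells were also set beside these genes. Fabp4, Plin2, Cd36 and Pparg are expressed in adipocytes too. The 8 adipocyte markers summed to 3.77 to 4.39 FPKM in controls, 3.67 to 4.45 FPKM with IL-4 and 5.17 to 5.79 FPKM with IL-6. Most of this sum was Lipe, the hormone-sensitive lipase that other cells express too, at 3.52 to 4.29 FPKM in controls, 2.60 to 3.16 FPKM with IL-4 and 5.05 to 5.70 FPKM with IL-6. Plin1 and Cidec were at most 0.149 FPKM in any library, whereas Adipoq was at 0.744 to 1.14 FPKM with IL-4 and at most 0.0222 FPKM elsewhere. Mast cell and basophil markers summed to 12.4 to 28.8 FPKM in controls, 47.0 to 79.7 FPKM with IL-4 and 5.52 to 22.5 FPKM with IL-6, with 3 of 4 tested called higher with IL-4, and Mcpt4 at 0 in all libraries. Granulocyte markers summed to 4632 to 8325 FPKM in controls, 2073 to 3918 FPKM with IL-4 and 7602 to 10537 FPKM with IL-6. Most of this sum was S100a9 and S100a8, with means of 3973 and 1649 FPKM in controls. Of these 9 markers, 7 were called lower with IL-4 than in controls, 1 lower with IL-6 than in controls and 7 higher with IL-6 than with IL-4. The shares of all tested genes were 8.89%, 1.89% and 13.6% in that order, and 5.02% were higher with IL-4 than in controls. The part of these other cells in the differences above was not tested.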

How the data were processed

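Polyadenylated RNA of 9 libraries of BM-derived Mϕs, 3 a group (control, IL-4 and IL-6), was sequenced by the authors from a stranded library on a HiSeq2500. The table deposited by the authors holds FPKM of 53379 genes. Per the study's methods and the submitters' processing notes, reads were aligned to GRCm38 with STAR 2.4.2a and FPKM were calculated with Cufflinks 2.2.1 on GENCODE M5 genes. The 53379 gene identifiers were joined to symbols, exon lengths and coordinates of GENCODE M21 (GRCm38), and 50604 matched with their version.

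Among low values, 100.0% of 141426 values were whole fragments within 0.05 under the M21 exon lengths, so which program and annotation made the table is not settled. Depth was read from these steps, 29988160 to 39909571 fragments, and covers counting error only. Abcg1 and Ppard differ in version from M21, so no fragments were recovered for them.

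Genes averaging 0.5 FPKM or more were fitted on log2(FPKM + 0.1) with limma 3.58.1 in R 4.3.3, with all 9 libraries in one model, the trend and robust options, and Benjamini-Hochberg adjustment over all 12824 genes. The pseudocount understates the change of low genes. Calls needed an adjusted p below 0.05 and a log2 fold change of 1 or more in size. Folds are ratios of mean FPKM, errors are SD and tests two-sided. Exact permutation of 3 against 3 libraries cannot go below p = 0.1. The fit was tested on simulated data. Promoter windows came from RefSeq (GRCm38.p6). Other work used pandas 2.3.3, numpy 2.4.6 and matplotlib 3.10.9 in Python 3.11.15.

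The members, the pathway and marker lists and the sets of libraries were chosen with earlier results of these data known. Named in every comparison were the 10 members, Ppara, Rxrb, Nr1h2, Cd36 and Srebf1, with Socs3, Arg1 and Actb as checks, and per comparison the 4 largest rises and falls among called pathway genes. The reference gene Actb had log2 fold changes of −0.14 with IL-4 and −0.10 with IL-6 against control, neither called. No direction was given to a log2 fold change below its standard error. The set of libraries was split at a sum of 5 FPKM over 15 intestinal secretory genes, with Lyz1 left out because it shares sequence with Lyz2.

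The pairing of libraries rests on the m1 to m3 of the table's column names and on the design, which names 3 mice; that a number is the same mouse in each group is not spelled out. As a check, each library's deviations from its group mean were correlated over genes between same-numbered libraries. For IL-4 with control, replicates 1, 2 and 3 had r of 0.521, −0.415 and 0.0777. For IL-6 with control they had 0.408, 0.201 and 0.166, and for IL-6 with IL-4 0.281, −0.0612 and 0.153. Alternatives were other pseudocounts, filters and scalings, only the groups compared, a replicate block, the set as a term, voom on recovered fragments, an adjusted p alone, and each library left out. Removal of each library's length and GC trends was added after seeing the data.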

Additional observations from a re-analysis of the deposited data

How the results depend on the processing

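The 5 calls among the 10 genes for IL-4 against control became 3 with voom, which covers 8 of them. The 2 calls for IL-6 against control became 1 with no filter and with the replicate block, 0 with the set as a term, and 1 to 3 when 1 library was left out. Of these 2, voom kept Pparg and does not cover Abcg1. In the paired analysis, the replicate block changed no call of the 10 genes other than that of Abcg1 for IL-6 against control (adjusted p = 0.0594). Over all genes, the 1784 calls for IL-4 against control became 847 at a mean of 5 FPKM or more, 1111 with the set as a term and 3186 with an adjusted p alone. The 690 for IL-6 against control became 306, 187 and 1077 in that order, and 387 (without Control #3) to 1001 (without IL-4 #3) when 1 library was left out. The 2613 for IL-6 against IL-4 became 1219 with the higher filter and 4375 with an adjusted p alone. Apoe in IL-6 against control turned from −0.52 to 0.058 with quantile normalization. The cause of these shifts was not tested, except that a higher filter tests fewer genes and an adjusted p alone is a looser rule. Of the 270 log2 fold changes of the 10 genes with 1 library left out, 248 kept their side of the threshold, 6 gained and 16 lost a call. Ppargc1b has no value under the higher filter. Other pathway calls moved as given with them, and with an adjusted p alone they were 24, 10 and 28 in the 3 comparisons, against 14, 5 and 16, and 10 for IL-6 against IL-4 under the higher filter.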
